A study of Rattus norvegicus with 15 samples.

Results

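The transcripts described here are those of 6 aquaporins, Aqp1, Aqp2, Aqp3, Aqp4, Aqp6 and Aqp11, and of Avpr2, the vasopressin V2 receptor. They were taken by symbol from a table of 34357 genes, and all 7 were found, 1 row each. RNA-seq of total RNA was carried out on kidney cortex and mesenteric artery of male Dahl salt-sensitive (SS) rats, an inbred strain in which a high-salt diet raises blood pressure. In the deletion rats 30.4 kb of noncoding DNA had been removed (chr2:60825801-60856216 in rn7 coordinates), a stretch orthologous to the haplotype block around the human variant rs1173771, and the wild-type rats kept it. There were 4 deletion and 3 wild-type kidney cortex libraries, and 4 deletion and 4 wild-type mesenteric artery libraries. The labels give neither the age nor the diet of the rats, and do not say whether the libraries are from separate animals, so errors and p-values measure the spread between these libraries. All values are FPKM, fragments scaled by gene length and library size, and the read depth behind them is unknown. The deletion comparison asks which genes the interval influences in each tissue. None of the 7 genes lies on the chromosome of the deletion.

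Aquaporins are membrane channels for water. In the collecting duct, vasopressin binds the V2 receptor on principal cells, the receptor couples through the stimulatory G protein to adenylyl cyclase, and protein kinase A then phosphorylates Aqp2, which moves from vesicles to the apical membrane. Water leaves these cells through Aqp3 and Aqp4 in the basolateral membrane. Aqp1 is the constitutive water channel of the proximal tubule and thin descending limb, and it is also made by endothelial cells and erythrocytes. Aqp6 sits in intracellular vesicles of intercalated cells and conducts anions, and Aqp11 lies in the endoplasmic reticulum of proximal tubule cells.

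The sequences before and across the start of transcription are shown for the hormone-regulated channel Aqp2, its chromosomal neighbour Aqp6, the receptor Avpr2 and the constitutive channel Aqp1, because Aqp2 is set against Aqp6 and Avpr2 in the results and Aqp1 is the member that both tissues express. On rn7, Aqp2 (chr7:130711433-130716468, plus strand), Aqp5 (chr7:130722675-130726207, plus strand) and Aqp6 (chr7:130732216-130735149, plus strand) follow each other in a cluster of 23.7 kb, with 6.21 kb between Aqp2 and Aqp5 and 6.01 kb between Aqp5 and Aqp6. Aqp1 lies at chr4:84482512-84494690 (plus strand), Aqp3 at chr5:56239200-56244718 (minus strand), Aqp4 at chr18:6507903-6524558 (minus strand), Aqp11 at chr1:152046515-152056675 (minus strand) and Avpr2 at chrX:151633501-151636155 (plus strand). The promoter windows come from RefSeq on another assembly, GRCr8, and run from 250 bases before to 50 bases after the annotated start, 5′ to 3′ on the gene's strand. All 7 genes had a window. Capitals mark matches to GATA on either strand (read as GATA or TATC), to TGACG on either strand (read as TGACG or CGTCA, the core of a cyclic AMP response element), and to TATAA on the gene's strand.
Aqp2 (GRCr8 chr7:132590036-132590335, plus strand): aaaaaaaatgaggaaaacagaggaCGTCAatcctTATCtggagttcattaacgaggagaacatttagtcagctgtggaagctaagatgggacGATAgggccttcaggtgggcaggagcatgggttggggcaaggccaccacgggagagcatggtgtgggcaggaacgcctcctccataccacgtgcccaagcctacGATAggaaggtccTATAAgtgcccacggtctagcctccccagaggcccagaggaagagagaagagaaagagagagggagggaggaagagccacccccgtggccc
Aqp6 (GRCr8 chr7:132610819-132611118, plus strand): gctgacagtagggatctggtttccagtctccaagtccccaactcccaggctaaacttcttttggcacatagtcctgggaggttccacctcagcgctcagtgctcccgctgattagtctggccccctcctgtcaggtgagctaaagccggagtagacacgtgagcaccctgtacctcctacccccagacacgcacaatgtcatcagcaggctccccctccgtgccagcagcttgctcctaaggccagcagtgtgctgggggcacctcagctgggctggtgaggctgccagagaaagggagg
Avpr2 (GRCr8 chrX:156784889-156785188, plus strand): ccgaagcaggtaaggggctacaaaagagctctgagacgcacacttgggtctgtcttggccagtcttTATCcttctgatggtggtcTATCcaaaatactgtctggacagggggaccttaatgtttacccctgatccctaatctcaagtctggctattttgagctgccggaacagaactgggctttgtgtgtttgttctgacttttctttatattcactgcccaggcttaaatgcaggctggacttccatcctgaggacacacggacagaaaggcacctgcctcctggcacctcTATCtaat
Aqp1 (GRCr8 chr4:85812534-85812833, plus strand): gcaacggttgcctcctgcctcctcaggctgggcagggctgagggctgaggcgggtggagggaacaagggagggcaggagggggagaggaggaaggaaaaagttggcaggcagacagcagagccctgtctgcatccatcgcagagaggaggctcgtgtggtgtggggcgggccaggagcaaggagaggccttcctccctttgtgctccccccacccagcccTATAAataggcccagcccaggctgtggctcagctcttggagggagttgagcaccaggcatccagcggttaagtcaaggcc
The Aqp2 window held GATA at 216, 158 and 54 bases before the start, TGACG at 226 and TATAA at 41 bases before it. The Aqp6 window held none of these letters. The Avpr2 window held GATA at 184 and 165 bases before the start and once after it, and the Aqp1 window held TATAA at 30 bases before the start. Such matches are common: of 33469 rat promoter windows of the same length, 60.5% held GATA, 21.2% held TGACG and 18.4% held TATAA. They describe the letters only, since binding was not measured.

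The libraries carried the markers of their tissues. The summed level of 7 proximal tubule markers was 1962 to 2883 FPKM in kidneys and 1.47 to 7.93 FPKM in arteries, that of 7 principal cell markers was 157 to 292 FPKM in kidneys and 2.92 to 4.48 FPKM in arteries, and that of 6 smooth muscle markers was 37.0 to 76.8 FPKM in kidneys and 1311 to 2705 FPKM in arteries. The arteries also held 6 adipocyte markers at 1360 to 2586 FPKM. The library labelled kidney wild-type 3 went against its male label: the X-inactivation RNA Xist stood at 81.1 FPKM there and at 0.0989 to 1.30 FPKM in the other 14 libraries, and the Y-linked Eif2s3y was at 0. The library labelled kidney deletion 2 stood apart in composition, with the small cytoplasmic RNA Rn7sl1 at 22.0% of its summed FPKM against 8.23% to 15.1% in the other kidneys. The deletion differences in kidney are therefore also given without either library and without both. The summed FPKM of a library was 376270 to 459847 in kidneys and 285679 to 433477 in arteries.

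In kidney cortex the members spanned a wide range of levels, and the lowest averaged below 1 FPKM. Aqp1 was the highest at 338 ± 87.6 FPKM (SD, n = 7 for this and the next values). Aqp2 followed at 67.0 ± 20.2 FPKM and Aqp6 at 60.2 ± 12.1 FPKM, then Aqp3 at 34.4 ± 2.86 FPKM, Aqp11 at 21.1 ± 4.83 FPKM, Avpr2 at 5.35 ± 1.16 FPKM and Aqp4 at 0.882 ± 0.257 FPKM. Aqp2 and Aqp6 did not differ beyond their spread: Aqp2 ranged from 45.1 to 101 FPKM and Aqp6 from 48.3 to 80.8 FPKM, and Aqp2 was the higher in 5 of the 7 libraries. The ranges of the other neighbours in this order did not overlap. Aqp1 alone gave 44.3% to 67.3% of the summed FPKM of all listed aquaporins in a kidney library, while Aqp2 gave 7.75% to 19.9% and Aqp6 7.12% to 18.8%.

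Aqp2, the apical channel that vasopressin controls, stood at 70.4, 85.4, 52.6 and 45.1 FPKM in deletion kidneys 1 to 4, against 59.9, 53.9 and 101 FPKM in wild-type kidneys 1 to 3. The highest value was in wild-type 3 and the next highest in deletion 2, so the groups overlapped throughout. The means were 63.4 ± 18.1 FPKM (SD, n = 4) in deletion kidneys and 71.7 ± 25.9 FPKM (SD, n = 3) in wild-type kidneys. The log2 difference, deletion minus wild-type on the log2(FPKM + 0.5) scale, was -0.16 (SE 0.27), a ratio of 0.892 with a 95% confidence interval of 0.583 to 1.36, and did not pass the test (limma, adjusted p = 0.999). Without wild-type 3 the difference was 0.11, without deletion 2 it was -0.32, and without both it was -0.04.

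Aqp3, the basolateral glycerol and water channel of principal cells, varied least of the members. It stood at 38.5, 34.8, 37.5 and 31.3 FPKM in deletion kidneys, against 34.1, 34.0 and 30.8 FPKM in wild-type kidneys. The 2 highest of the 7 values were in deletion kidneys and the lowest in wild-type 3, with overlap between the groups. The difference was 0.10 (SE 0.12), a ratio of 1.07 with an interval of 0.886 to 1.30 (limma, adjusted p = 0.999), and it was 0.06 without wild-type 3, 0.11 without deletion 2 and 0.07 without both. Aqp4, the other basolateral water channel, was near the lower end of what was tested: it stood at 1.16, 0.981, 0.725 and 0.575 FPKM in deletion kidneys, against 1.25, 0.655 and 0.825 FPKM in wild-type kidneys. Its groups overlapped, with a difference of -0.05 (SE 0.24) and a ratio of 0.966 with an interval of 0.666 to 1.40 (limma, adjusted p = 0.999). It was -0.08 without wild-type 3, -0.10 without deletion 2 and -0.13 without both.

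Avpr2, the receptor that starts the response of principal cells, stood at 5.07, 6.43, 3.96 and 5.43 FPKM in deletion kidneys, against 5.66, 3.88 and 6.99 FPKM in wild-type kidneys. Both the lowest and the highest value belonged to wild-type kidneys, and the highest was again wild-type 3. The means were 5.22 ± 1.02 FPKM (SD, n = 4) in deletion kidneys and 5.51 ± 1.56 FPKM (SD, n = 3) in wild-type kidneys. The difference was -0.05 (SE 0.22), a ratio of 0.963 with an interval of 0.689 to 1.35 (limma, adjusted p = 0.999), and it was 0.12 without wild-type 3, -0.15 without deletion 2 and 0.02 without both.

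Aqp6, the vesicle channel of intercalated cells, stood at 54.1, 80.8, 48.3 and 52.4 FPKM in deletion kidneys, against 63.3, 51.5 and 71.4 FPKM in wild-type kidneys. Deletion 2 was the highest and wild-type 3 the next, and 3 of the 4 deletion kidneys lay below 2 of the 3 wild-type kidneys. The means were 58.9 ± 14.8 FPKM (SD, n = 4) in deletion kidneys and 62.0 ± 10.0 FPKM (SD, n = 3) in wild-type kidneys. The difference was -0.09 (SE 0.20), a ratio of 0.938 with an interval of 0.684 to 1.29 (limma, adjusted p = 0.999), and it was 0.02 without wild-type 3, -0.25 without deletion 2 and -0.15 without both. Aqp5, which lies between Aqp2 and Aqp6 in the cluster, was listed at 0.255 to 0.868 FPKM in the 7 kidneys, far below both of its neighbours.

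Aqp1, the proximal water channel, stood at 397, 190, 456 and 322 FPKM in deletion kidneys, against 399, 308 and 296 FPKM in wild-type kidneys. The deletion kidneys held both the highest and the lowest value, and the lowest was deletion 2. The means were 341 ± 115 FPKM (SD, n = 4) in deletion kidneys and 334 ± 56.5 FPKM (SD, n = 3) in wild-type kidneys. The difference was -0.03 (SE 0.31), a ratio of 0.980 with an interval of 0.608 to 1.58 (limma, adjusted p = 0.999). Without deletion 2 the difference was 0.23, without wild-type 3 it was -0.11, and without both it was 0.14.

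Aqp11, the intracellular channel of the proximal tubule, followed the same low value: it stood at 22.1, 11.4, 25.5 and 21.2 FPKM in deletion kidneys, against 19.1, 22.9 and 25.5 FPKM in wild-type kidneys. Deletion 2 lay below every other kidney, and the remaining values of the groups overlapped. The difference was -0.21 (SE 0.24), a ratio of 0.865 with an interval of 0.592 to 1.26 (limma, adjusted p = 0.999), and it was -0.12 without wild-type 3, 0.03 without deletion 2 and 0.12 without both.

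**Figure D1:**
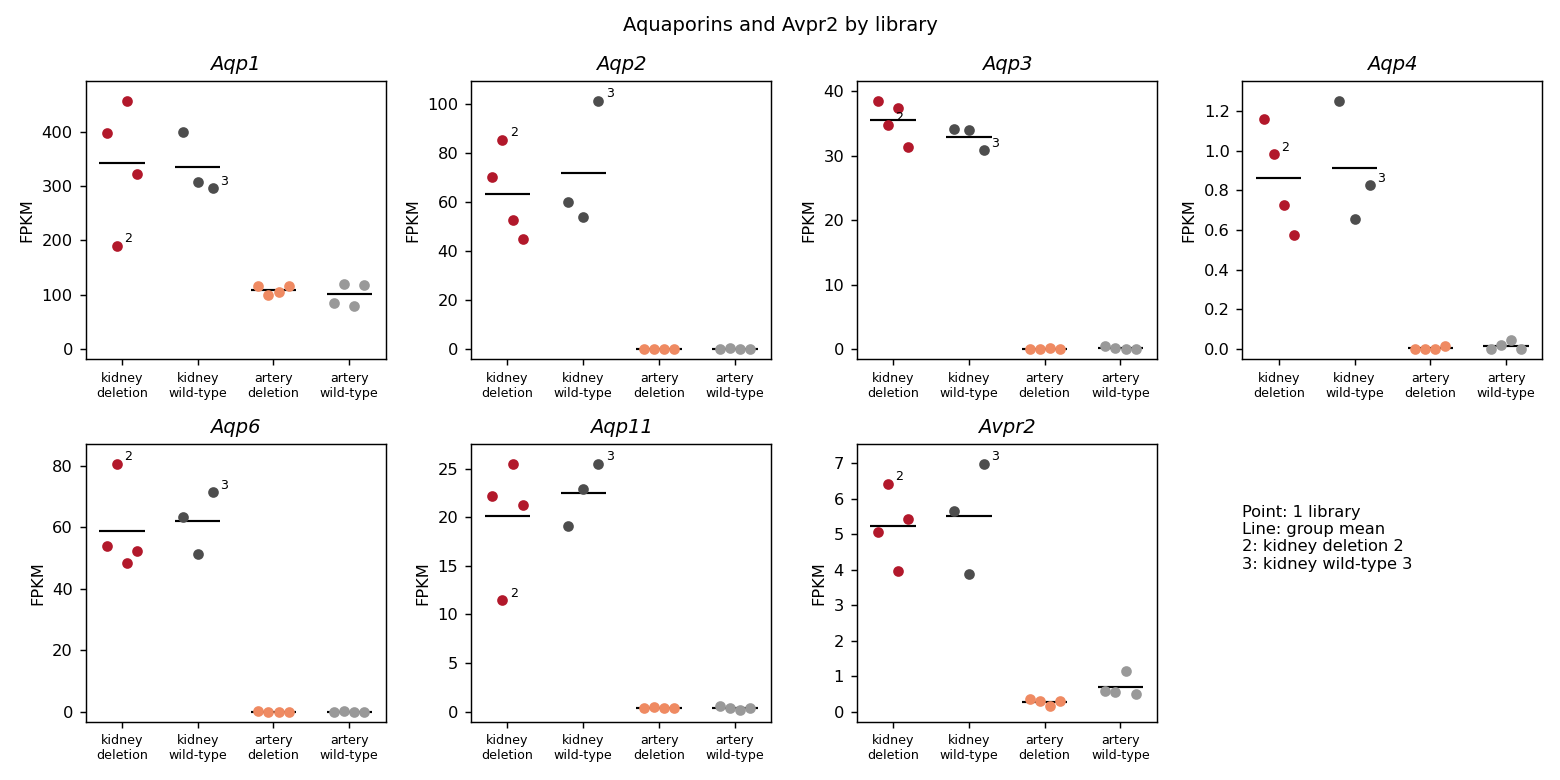
Level of each member in FPKM (vertical axes, each including 0 and with its own scale) in the 4 groups, with 1 point per library and a line at the group mean; kidney deletion 2 and kidney wild-type 3 are numbered. Aqp1 is the only member well above 0 in arteries, at 78.9 to 120 FPKM, and the deletion and wild-type kidneys overlap for all 7 genes.

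Across the 7 members in kidney, 1 difference was positive and 6 were negative, with a median of -0.0540, against a median of 0.0437 over all 15444 genes tested. None of the 7 passed at an adjusted p under 0.05 (0% of all genes passed by limma), none had an unadjusted p under 0.05 (1.41% of all genes, 217 of them, a number that ran from 99 without deletion 1 to 1055 without wild-type 1), and none had groups that did not overlap (2.55% of all genes). The unadjusted p-values from limma ran from 0.411 for Aqp11 to 0.925 for Aqp1. The intervals differed in width: that of Aqp3 covered ratios of 0.886 to 1.30, whereas that of Aqp1 covered 0.608 to 1.58.

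**Figure D2:**
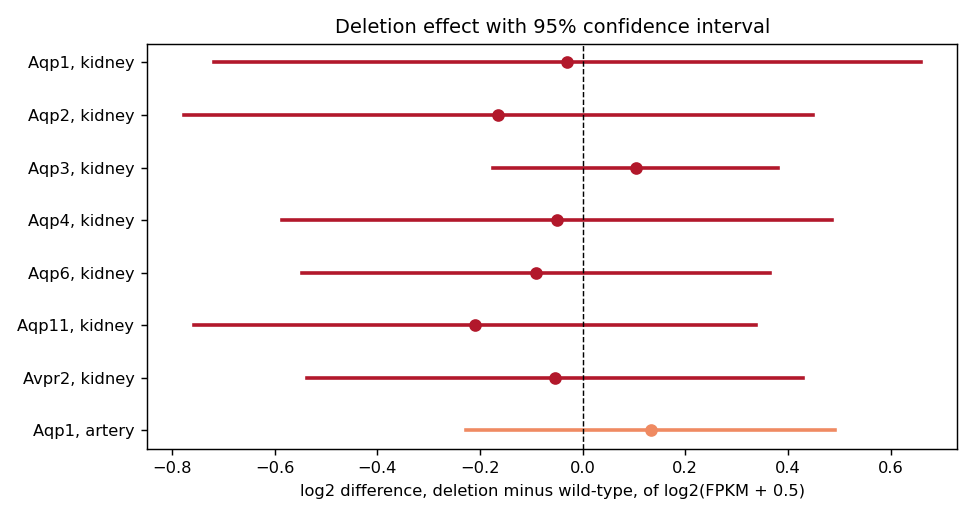
Log2 difference between deletion and wild-type libraries (horizontal axis, on the log2(FPKM + 0.5) scale) with its 95% confidence interval from limma, for the 7 members in kidney cortex and for Aqp1 in mesenteric artery. Every interval crosses 0, and the interval of Aqp3 is the shortest.

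The members differed in how much they varied among kidneys of either genotype. The SD of log2(FPKM + 0.5) over the 7 kidneys was 0.414 for Aqp1, 0.413 for Aqp2, 0.387 for Aqp11, 0.294 for Avpr2, 0.274 for Aqp6 and 0.118 for Aqp3. The median SD over the 8715 genes that averaged 5 FPKM or more was 0.205. Of these genes, 90.1% had a smaller SD than Aqp1, 90.0% a smaller SD than Aqp2 and 87.8% a smaller SD than Aqp11, but only 13.6% had a smaller SD than Aqp3. Aqp2 and Aqp3, both made by principal cells, thus had unlike spreads, and the ratio of Aqp2 to Aqp3 ran from 1.40 in deletion 3 to 3.29 in wild-type 3. The ratio of Aqp2 to Avpr2 ran from 8.31 in deletion 4 to 14.5 in wild-type 3, and that of Aqp1 to Aqp11 from 11.6 in wild-type 3 to 20.9 in wild-type 1.

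Both kidneys named above carried much of this spread. In deletion 2, the proximal members Aqp1 and Aqp11 stood at 56.2% and 54.2% of their means over the 7 kidneys, while Aqp2 stood at 128%, Aqp6 at 134%, Avpr2 at 120%, Aqp4 at 111% and Aqp3 at 101%. The summed markers of proximal tubule stood at 77.4% in the same library, those of principal cells at 143%, of intercalated cells at 164%, of distal convoluted and connecting tubule at 159% and of glomerulus at 165%. In wild-type 3, Aqp2 stood at 151%, Avpr2 at 131% and Aqp6 at 119%, whereas Aqp3 stood at 89.5% and Aqp4 at 93.5%, the principal cell markers at 91.4% and the intercalated cell markers at 94.1%. The ratio of Aqp2 to the summed principal cell markers was accordingly highest in wild-type 3, at 0.542, against 0.235 to 0.398 in the other 6 kidneys. The 4 thin limb and medulla markers also summed highest in wild-type 3, at 76.1 FPKM against 15.1 to 60.0 FPKM in the other kidneys, while Slc14a2, the vasopressin-regulated urea transporter of the medulla, was at most 0.281 FPKM in any kidney. The part of sex, of medullary RNA and of library composition in these values was not tested. In bulk tissue, fewer cells of a type and less RNA per cell cannot be told apart.

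**Figure D3:**
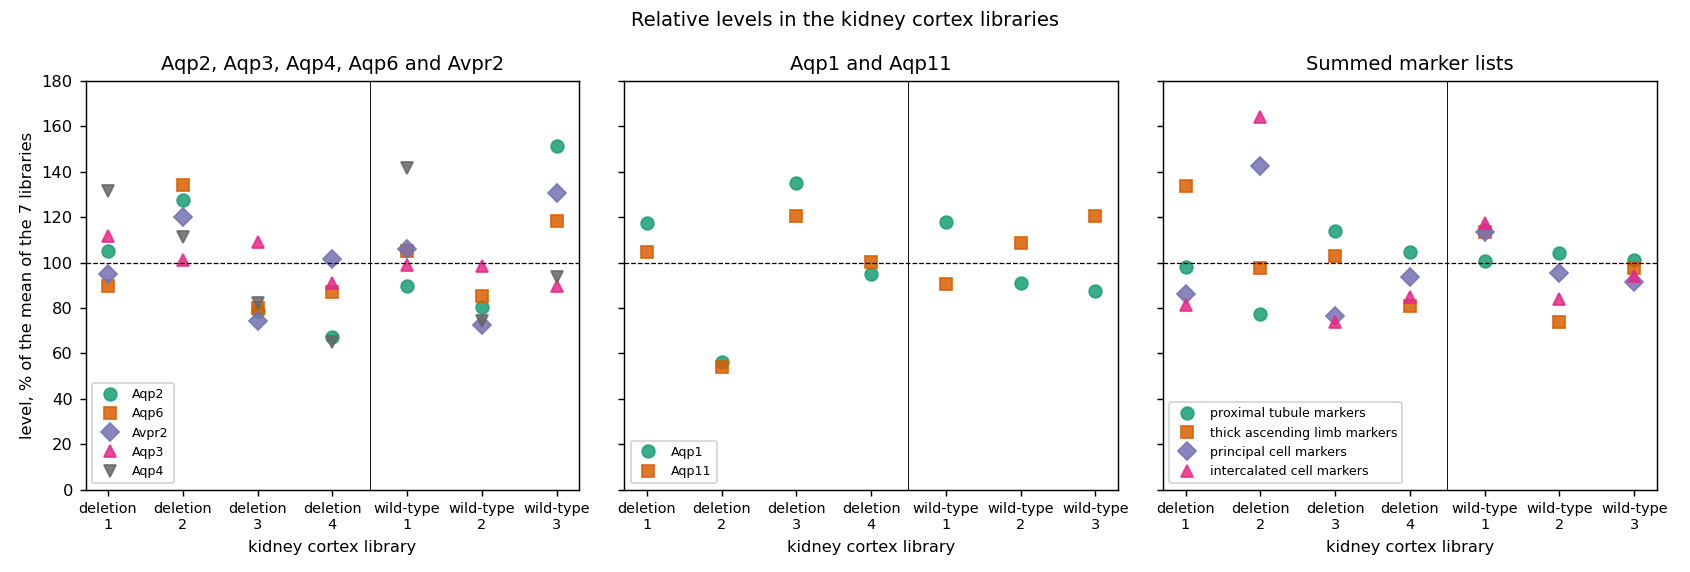
Level in each of the 7 kidney cortex libraries as a percentage of the mean over the 7 (vertical axes), for the collecting duct members (left), Aqp1 and Aqp11 (middle) and summed marker lists of 4 nephron segments (right); the vertical line separates deletion from wild-type libraries and the dashed line is at 100%. Aqp1 and Aqp11 are lowest in deletion 2, at 56.2% and 54.2%, and Aqp2 is highest in wild-type 3, at 151%.

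Over the 7 kidneys, Aqp2 was compared with each of the other 6 members, and none of the relations passed adjustment. The closest was with its neighbour Aqp6: Pearson's r was 0.81 (exact permutation test over 5040 arrangements, p = 0.0268, adjusted p = 0.161) and Spearman's rho was 0.82 (p = 0.0341, adjusted p = 0.205). With Avpr2, r was 0.72 (exact permutation p = 0.0679, adjusted p = 0.204) and rho was 0.68. Both were lower without the kidneys farthest from the median of Aqp2, wild-type 3 and deletion 2: r was then 0.40 with Aqp6 and 0.15 with Avpr2. These kidneys were chosen by their Aqp2 values, so leaving them out also narrows the range of Aqp2. The drop therefore cannot show that the relations depend on them. The other coefficients moved as well: without these kidneys r was 0.86 with Aqp4, against 0.46 over all 7, 0.74 with Aqp3, against -0.13, and 0.42 with Aqp1, against -0.50. With Aqp11 it was -0.16, against -0.27. Within the 4 deletion or the 3 wild-type kidneys there were too few libraries for a coefficient.

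**Figure D4:**
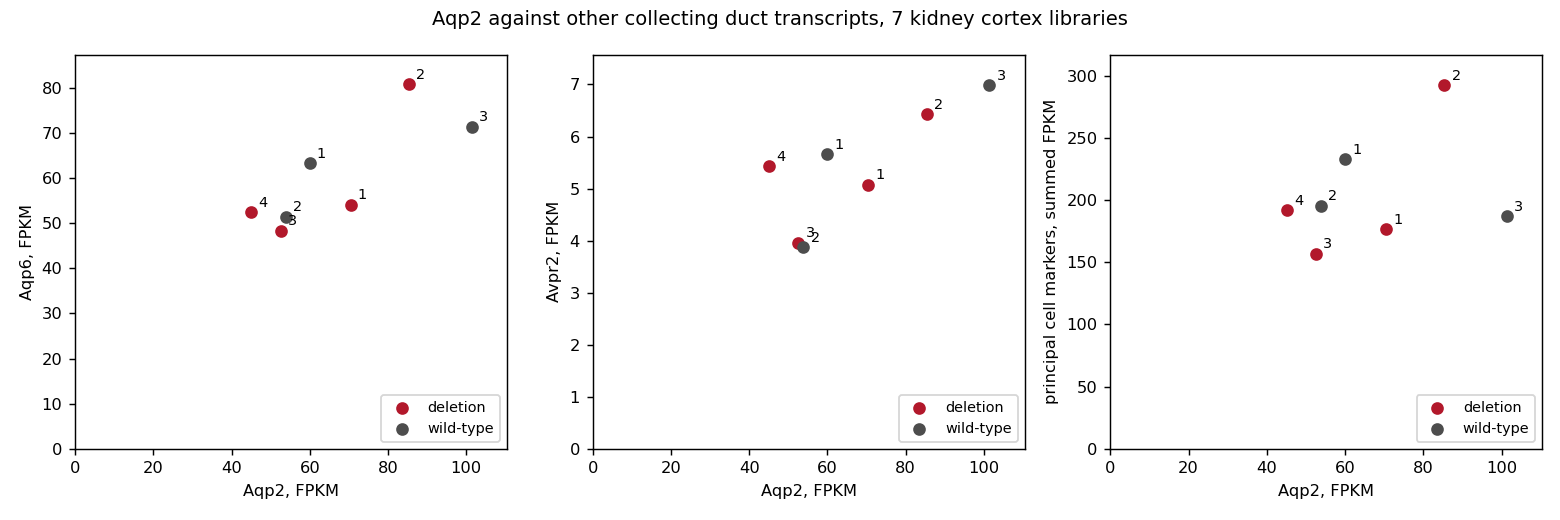
Aqp2 in FPKM (horizontal axes) against Aqp6, Avpr2 and the sum of 7 principal cell markers (vertical axes, FPKM) in the 7 kidney cortex libraries, 1 point per library with its replicate number. The kidneys with the highest Aqp2, wild-type 3 and deletion 2, also have the highest Aqp6 and Avpr2, but in wild-type 3 the principal cell markers sum to 187 FPKM, inside the range of the other kidneys.

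In mesenteric artery only Aqp1 passed the filter of a mean of at least 0.5 FPKM. This channel stood at 115, 98.7, 106 and 115 FPKM in deletion arteries 1 to 4, against 85.5, 120, 78.9 and 119 FPKM in wild-type arteries 1 to 4. The deletion arteries lay close together between the low and the high pair of wild-type arteries, and the groups overlapped. The means were 109 ± 8.16 FPKM (SD, n = 4) in deletion arteries and 101 ± 21.7 FPKM (SD, n = 4) in wild-type arteries. The difference was 0.13 (SE 0.16), a ratio of 1.10 with an interval of 0.854 to 1.41 (limma, adjusted p = 0.913). Of the 16470 genes tested in artery, 0% passed at an adjusted p under 0.05, 5.24% had an unadjusted p under 0.05 and 3.25% had groups that did not overlap. Of the cell types that make Aqp1, 7 endothelial markers summed to 391 to 486 FPKM in deletion arteries and 453 to 516 FPKM in wild-type arteries, and 7 erythrocyte markers to 3728 to 33460 FPKM in deletion arteries and 3584 to 104847 FPKM in wild-type arteries. The library with the most erythrocyte RNA, wild-type 4, had 119 FPKM of Aqp1, and wild-type 2, with 14262 FPKM of erythrocyte markers, had 120 FPKM.

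Avpr2 in artery fell just under the filter, with a mean of 0.492 FPKM over the 8 libraries, and was tested without the filter as an addition made after its values were seen. It stood at 0.356, 0.301, 0.164 and 0.300 FPKM in deletion arteries, against 0.585, 0.558, 1.16 and 0.513 FPKM in wild-type arteries. All deletion arteries lay below all wild-type arteries, and wild-type 3 was far above the rest. The means were 0.280 ± 0.0818 FPKM (SD, n = 4) in deletion arteries and 0.704 ± 0.306 FPKM (SD, n = 4) in wild-type arteries, a difference of -0.424 FPKM with a two-sided exact permutation p of 0.0286, the smallest that the 70 arrangements allow. On the log2 scale the difference was -0.60 (SE 0.18, unadjusted p = 0.0107, limma). It did not pass adjustment over the 27010 genes tested without the filter (adjusted p = 0.912), of which 2.61% had groups that did not overlap. It was -0.44 without wild-type 3, and -1.04 and -0.40 with pseudocounts of 0.1 and 1.

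The highest of these values was in wild-type 3, where other transcripts were also high. The last 85 bases of Avpr2 (chrX:151636071-151636155 on rn7) overlap the end of Arhgap4, a gene on the opposite strand, and none of the sources used here gives the strand rule of the authors' quantification, so reads in the overlap cannot be assigned to one gene. Arhgap4 stood at 2.78, 6.42, 3.48 and 4.50 FPKM in deletion arteries, against 3.65, 3.48, 9.15 and 5.39 FPKM in wild-type arteries, with overlapping groups but the same highest library, wild-type 3. The 5 leukocyte markers summed to 38.5, 89.2, 74.7 and 53.0 FPKM in deletion arteries, against 59.9, 46.7, 162 and 98.0 FPKM in wild-type arteries. Wild-type 3 was again the highest, and all 5 markers were lower in the deletion arteries with none passing the test. The part of Arhgap4 reads and of leukocytes in the Avpr2 values was not tested.

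The other members were at or near 0 in arteries. Aqp2 was listed at 0 in all 4 deletion arteries and at 0, 0.293, 0 and 0 FPKM in wild-type arteries. Aqp6 was listed at 0.121, 0, 0 and 0 FPKM in deletion arteries and at 0, 0.230, 0 and 0 FPKM in wild-type arteries. Wild-type 2 thus carried the only Aqp2 value above 0 and the higher of the Aqp6 values. Aqp3 reached 0.116 FPKM in deletion arteries and 0.429 FPKM in wild-type arteries, and Aqp4 reached 0.0150 FPKM in deletion arteries and 0.0470 FPKM in wild-type arteries. Aqp11 was found in every artery, at 0.384, 0.445, 0.376 and 0.353 FPKM in deletion arteries and 0.640, 0.433, 0.214 and 0.380 FPKM in wild-type arteries. The highest Aqp3 and Aqp11 values were both in wild-type 1. There the 5 intestinal epithelium markers summed to 28.8 FPKM, against 0.206 to 3.23 FPKM in the other arteries. The proximal tubule markers summed to 7.93 FPKM there, against 1.47 to 3.91 FPKM. The part of other tissue in the artery values of these members was not tested.

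Between the tissues, averaged over genotype, all 7 members were called higher in kidney cortex than in mesenteric artery by limma (adjusted p under 0.05), as were 35.0% of all 17842 genes, while 77.4% of all genes were called in either direction. Since 6 of the 7 members passed the filter through their kidney values alone, that count describes which genes were tested. For Aqp1, which both tissues express, the kidney minus artery difference was 1.66 (SE 0.17), a ratio of 3.15 with an interval of 2.45 to 4.05 (limma, adjusted p = 2.52e-07), and every kidney lay above every artery. For Aqp11 and Avpr2 the levels are given as a description: Aqp11 was 21.1 FPKM in kidneys and 0.403 FPKM in arteries, and Avpr2 was 5.35 FPKM in kidneys and 0.492 FPKM in arteries, on average, with no overlap between the tissues. For Aqp2, Aqp3, Aqp4 and Aqp6 no ratio is given, because their artery values were at or near 0. The median difference of all genes between the tissues was -0.13 as deposited and -0.000580 after median-of-ratios scaling, a shift small beside the differences above.

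For Aqp1, the only member over the filter in both tissues, the deletion effect did not differ detectably between them. Its interaction was -0.16 (SE 0.34, unadjusted p = 0.640, limma). The other members were under the filter in artery and entered this fit through their kidney values. Their interactions are therefore given as a description. The interaction, the kidney effect minus the artery effect, had no member called among all genes tested by limma (0% called, 4.30% with an unadjusted p under 0.05, or 768 genes, which ran from 491 without kidney wild-type 3 to 1653 without kidney wild-type 1). The largest was that of Avpr2, at 0.55 (SE 0.30, unadjusted p = 0.0920, adjusted p = 0.947, limma), which carries the low artery values described above. The interaction was 0.33 for Aqp3 and -0.18 for Aqp11. For the rest it was 0.00189 for Aqp2, -0.01 for Aqp4 and -0.03 for Aqp6. In these last genes and in Aqp3 the artery term rested on a few low values above 0. For Aqp2 the unfiltered artery difference was -0.17, from 1 wild-type artery at 0.293 FPKM, beside a kidney difference of -0.16.

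The remaining aquaporins left a single gene to set beside the members. Aqp7, a glycerol channel of fat cells and of the late proximal tubule, was 46.4 ± 10.5 FPKM (SD, n = 7) in kidneys, between Aqp6 and Aqp3 in the order of levels, and gave 5.81% to 9.31% of the aquaporin sum. In arteries it stood at 65.6, 129, 86.6 and 66.5 FPKM in deletion libraries and 83.3, 67.0, 64.8 and 58.6 FPKM in wild-type libraries, and gave 32.9% to 56.5% of the sum, the other large share being Aqp1 at 43.2% to 66.6%. Its deletion difference was -0.09 in kidney and 0.30 in artery (limma, unadjusted p = 0.200), neither passing the test, and the kidney value was 0.18 without deletion 2. Artery deletion 2 held the highest Aqp7, at 129 FPKM, and its 6 adipocyte markers were also the highest of the arteries, at 2586 FPKM. The part of fat cells in the artery difference was not tested. In kidney deletion 2 Aqp7 was 24.9 FPKM, the lowest of the 7 kidneys, as Aqp1 and Aqp11 were.

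The pathway downstream of the receptor was measured in both tissues. Of 25 genes of V2 receptor signalling and Aqp2 trafficking, 24 were tested in each tissue and none passed after adjustment by limma. In kidney, 14 were higher and 10 lower in deletion libraries, with a median of 0.0133 and none at an unadjusted p under 0.05; without deletion 2, 10 were higher and 14 lower, and without both libraries that stand apart 17 were higher and 7 lower. In artery, 14 were higher and 10 lower, with a median of 0.0235, against 0.0436 over all genes. The most abundant in kidney were Gnas, the stimulatory G protein subunit, at 159 ± 16.3 FPKM (SD, n = 4) in deletion and 158 ± 10.3 FPKM (SD, n = 3) in wild-type libraries, and Prkar1a, a regulatory subunit of protein kinase A, at 72.7 ± 3.89 FPKM (SD, n = 4) in deletion and 82.1 ± 4.95 FPKM (SD, n = 3) in wild-type libraries. For Prkar1a all deletion kidneys lay below all wild-type kidneys (unadjusted p = 0.232, limma). Of all genes tested in kidney, 2.55% had groups that did not overlap. Vamp8, a vesicle protein needed for the insertion of Aqp2, stood at 60.9 ± 9.83 FPKM in deletion and 70.4 ± 15.5 FPKM in wild-type kidneys, and Rab11a, which recycles vesicles, at 49.8 ± 1.51 FPKM in deletion and 51.1 ± 4.22 FPKM in wild-type kidneys. In artery, 2 of the 24 had an unadjusted p under 0.05, against 5.24% of all genes. These were Adcy3, an adenylyl cyclase of the renal collecting duct, at 0.26 (SE 0.10, unadjusted p = 0.0318, adjusted p = 0.893, limma), and Prkaca, the catalytic subunit of protein kinase A, at 0.22 (SE 0.09, unadjusted p = 0.0364, adjusted p = 0.893, limma).

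Of 7 principal cell markers, 6 were tested in kidney, 4 higher and 2 lower in deletion libraries with a median of 0.0785, and none passed after adjustment. This split rested on deletion 2: without it 1 was higher and 5 lower with a median of -0.18. Without both libraries that stand apart 0 were higher and 6 lower with a median of -0.22, against -0.02 over all genes. Only wild-type 1 and 2 were then left, with marker sums at 114% and 95.4% of the mean over the 7 kidneys. Deletion 2 had the highest sum, at 143%, so leaving it out lowers the deletion mean of that sum. Fxyd4, a subunit that modulates the sodium pump in the collecting duct, stood at 10.2, 7.89, 6.33 and 6.15 FPKM in deletion kidneys, against 13.2, 10.1 and 13.3 FPKM in wild-type kidneys. Only deletion 1 overlapped the wild-type values, and the difference was -0.65 (SE 0.19, unadjusted p = 0.00638, adjusted p = 0.999, limma), or -0.61 without both libraries. Fxyd4 was the only 1 of the 6 at an unadjusted p under 0.05 by limma, against 1.41% of all genes tested in kidney. With all kidneys, Hsd11b2 was also lower in deletion libraries, at -0.19, and the other 4 markers were higher, at 0.06 to 0.20. In artery 4 of the 7 markers were tested, 2 higher and 2 lower with a median of -0.11 and none passing. Gata3, a transcription factor of the collecting duct, stood at 0.214, 0.449, 0.298 and 0.432 FPKM in deletion arteries, against 0.518, 0.700, 0.955 and 0.885 FPKM in wild-type arteries. All deletion arteries lay below all wild-type arteries, where 3.25% of all genes tested in artery had groups that did not overlap. The difference was -0.57 (SE 0.19, unadjusted p = 0.0148, adjusted p = 0.893, limma). Leukocyte marker sums were 38.5, 89.2, 74.7 and 53.0 FPKM in deletion arteries, against 59.9, 46.7, 162 and 98.0 FPKM in wild-type arteries. The part of leukocytes in the Gata3 values was not tested. Of 8 genes of the response to hypertonicity, which Nfat5 drives and which also acts on Aqp2 transcription, all were tested in both tissues and none passed. In kidney 6 were higher and 2 lower in deletion libraries with a median of 0.171, or 7 higher and 1 lower without both libraries, and in artery 4 were higher and 4 lower with a median of 0.0263, where Slc5a3, the myo-inositol transporter, had a difference of 0.39 (SE 0.15, unadjusted p = 0.0276, limma).

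The other receptors of vasopressin and oxytocin had another distribution from that of Avpr2. Avpr1a, the V1a receptor through which vasopressin contracts vascular smooth muscle, stood at 2.01, 1.39, 3.39 and 2.04 FPKM in deletion arteries, against 3.70, 3.54, 2.62 and 2.39 FPKM in wild-type arteries, with overlapping groups and a difference of -0.43 (limma, unadjusted p = 0.0964). Oxtr, the oxytocin receptor, stood at 64.0, 124, 71.8 and 53.0 FPKM in deletion arteries, against 58.2, 45.8, 54.9 and 44.5 FPKM in wild-type arteries. Deletion 2 was by far the highest, and its 6 adipocyte markers and 5 mesothelial markers were also the highest of the arteries, at 2586 and 159.5 FPKM. The Oxtr difference was 0.55 (SE 0.24, unadjusted p = 0.0433, adjusted p = 0.893, limma), and the part of these cell types in it was not tested. In kidneys Avpr1a and Oxtr had differences of -0.27 and -0.35 that did not pass, at -0.30 and -0.44 without deletion 2. The Avpr1a difference was -0.24 without wild-type 3 and -0.27 without both libraries. Oxtr was highest in kidney wild-type 3, at 0.861 FPKM. It fell under the filter without that library and was not tested there, so its kidney test rested on wild-type 3. Avpr1b and Oxt were listed at 0 in all 15 libraries.

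By Pearson correlation of log2(FPKM + 0.5) over the 7 kidneys, the genes most like Aqp2 among 8714 genes that averaged 5 FPKM or more were Ddx23 and Gpd1l1 (r = 0.99 each) and Crip2, Mfhas1 and Aatf (r = 0.96 each). Over the 8 arteries, those most like Aqp1 among 8952 genes were Fez1 and Mamdc2 (r = 0.96 each), Adcy1 and Mtss2 (r = 0.95 each) and Hspa12a (r = 0.94). These are descriptions over few libraries, and the coefficients with Aqp2 include the kidneys wild-type 3 and deletion 2, which stand apart.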

How the data were processed

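RNA-seq of total RNA was deposited for 7 kidney cortex and 8 mesenteric artery libraries. The authors' deposited table holds FPKM values, 1 column per library. Per the submitters' processing notes, Trim Galore 0.6.2, HISAT2 2.2.1 and DESeq2 1.46.0 and the build rn7 were used, with no role given; none of the sources used here names the tool behind the FPKM values. Of 40694 rows, 6337 carry no gene identifier and are 0 throughout, and 34357 were kept. The authors deposited 1 further column, of coverage and of no stated sample, which was not used. FPKM values were not whole multiples of 1 read, so counts were not recovered, depth is unknown and no counting interval is given.

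Groups and replicate numbers come from the sample titles. No 2 libraries held identical values. Values were analysed as log2(FPKM + 0.5) without rescaling. Genes that averaged 0.5 FPKM or more in a tissue were tested with limma 3.58.1 in R 4.3.3 (eBayes with trend and robust moderation), deletion against wild-type within each tissue. Tissue and interaction were fitted over all 15 libraries. Tests are two-sided, with Benjamini-Hochberg adjustment over all genes tested and a threshold of 0.05. The fitting procedure was tested on simulated data. Alternatives were other pseudocounts, filters and scaling, moderation without the robust option, 1 fit over all libraries, a block for the replicate number, and leaving out each library; leaving out 2 kidneys together, the lists without those kidneys and the unfiltered test of Avpr2 were added after seeing the data. Named genes were the members, up to 4 of the most abundant genes of a list, and the 5 genes most like Aqp2 in kidney and Aqp1 in artery; Adcy3, Prkaca, Slc5a3, Fxyd4, Gata3, Slc14a2, Arhgap4, Xist, Eif2s3y and Rn7sl1 were named after their values were seen. The members and lists were chosen with earlier results of these data known.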

Additional observations from a re-analysis of the deposited data

Results flagged for a closer look

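In groups of 4 libraries, a value was singled out when its gap to the nearest other value as a share of the range of the group exceeded Dixon's 95% critical value. Of 20 such groups over the members, 5 met this, all in artery. In 4 of them 3 libraries were at 0, so that any value above 0 met it, and the chance rate of about 1 in 20 does not apply. Aqp2 in wild-type artery 2 stood at 0.293 FPKM, with the other 3 libraries at 0. Aqp6 stood at 0.230 FPKM in the same library and at 0.121 FPKM in deletion artery 1, again with the rest of each group at 0. Aqp4 stood at 0.0150 FPKM in deletion artery 4, with the other 3 at 0. Each of these is a single value above 0 near the lower end of the table. Wild-type artery 2 also had the highest sum of thick ascending limb markers of the arteries, at 2.94 FPKM. The part of other tissue in these values was not tested. Avpr2 in wild-type artery 3 stood at 1.16 FPKM, with the other wild-type arteries at 0.513 to 0.585 FPKM, a gap of 0.889 of the range. The kidney wild-type group has 3 libraries and was not examined in this way.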

How the results depend on the processing

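No member was called for a deletion effect or an interaction under any alternative run. The count of all genes called in kidney was 0, but 1 with 1 fit over all libraries and 0 to 1 when each library was left out (1 without wild-type 1); in artery it was 0, but 1 with a pseudocount of 0.1 and 0 to 1 when each was left out (1 without wild-type 2 or deletion 3). Leaving out libraries moved the kidney effects across 0: Aqp1 ran from -0.19 to 0.23, Aqp2 from -0.34 to 0.11, Aqp4 from -0.18 to 0.12, Aqp6 from -0.25 to 0.0151, Aqp11 from -0.34 to 0.12 and Avpr2 from -0.27 to 0.12. The interaction ran from -0.33 to 0.0942 for Aqp1, from -0.17 to 0.28 for Aqp2, from -0.15 to 0.15 for Aqp4, from -0.19 to 0.0730 for Aqp6 and from -0.32 to 0.15 for Aqp11. It also turned for Aqp4 (0.0841) and Aqp6 (0.0511) with a pseudocount of 0.1, and for Aqp2 with a pseudocount of 1 (-0.0705) or median-of-ratios scaling (-0.10); the cause was not tested. That scaling turned r between Aqp2 and Aqp3 to 0.00928 and between Aqp2 and Aqp11 to 0.0693. Leaving out 1 kidney, r with Aqp2 ran from -0.54 to 0.46 for Aqp3, from 0.79 to 0.87 for Aqp6, from -0.75 to 0.38 for Aqp11 and from 0.55 to 0.91 for Avpr2. The correlations between the deviations of same-numbered libraries were mixed, at 0.08, -0.01 and 0.27 in kidney and 0.32, -0.34, 0.24 and 0.30 in artery. Of the wild-type libraries, 1 of 3 kidneys and 2 of 4 arteries correlated best with their own number. These values do not settle whether the numbers mark pairs. With the replicate number as a block, the kidney effect of Aqp4 was 0.0567, the interaction 0.0234 for Aqp4 and 0.00532 for Aqp6, and genes at an unadjusted p under 0.05 numbered 460 in kidney, against 217 without the block, with 0 called. Leaving out each library, that number ran from 99 to 1055 in kidney and from 659 to 1141 in artery. Depth is unknown, so values near 0 in artery carry no counting error.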
